A study of Mus musculus with 11 samples.

Results

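The 10 genes described here encode guidance molecules of the Slit-Robo and netrin-Dcc-Unc5 systems: the ligands Slit1, Slit2, Slit3 and Ntn1, and the receptors Robo1, Robo2, Robo3, Dcc, Unc5c and Unc5d. They were chosen by symbol and not by a threshold on their values, though with earlier results of these data known, and each symbol matched 1 of the 47069 gene identifiers in every count table. RNA-seq was done on whole retinas of C57BL/6 mice in 4 groups: wild type at postnatal day 4 (P4, 2 libraries), Brn3b-Kir2.1 at P4 (3 libraries), wild type at P8 (3 libraries) and Brn3b-Kir2.1 at P8 (3 libraries). Brn3b-Kir2.1 animals, called Kir2.1 here, carry human Kir2.1 joined to the fluorescent protein eYFP behind a CAG promoter and a floxed STOP cassette, and the Brn3b-cre driver. Kir2.1 is an inwardly rectifying potassium channel that damps electrical activity, and Brn3b (Pou4f2) is a transcription factor of retinal ganglion cells, the output neurons of the retina. The transgene is thus meant to act in a minority of the cells of a whole retina, a share that was not measured here.

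The human transgene was not measured here, so the genotype labels could not be checked by it. The labels conflict at 3 points. The age field names day 8 for the later group where the extraction protocol names day 11. The genotype field calls the controls wild type where the protocol names Brn3b-cre mice, so the controls may carry the driver too. The source field names ganglion cells, while the tissue field names retina and the protocol has no sorting step. The field values for age and genotype are used here. Nothing in the labels says whether the replicates of a group came from separate animals or litters, so p-values measure only the spread between these libraries.

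Slit proteins are secreted by guideposts along axon tracts and repel axons that carry Robo receptors. In the visual system, Robo2 on ganglion cell axons and Slit1 and Slit2 along their path are known to keep axons within the optic tract and at the chiasm, and Slit2 and Robo2 act inside the retina on axon growth towards the optic disc. Netrin-1 attracts axons through Dcc and repels them when Unc5 receptors join, and at the optic disc it guides ganglion cell axons out of the eye. Robo3 is a divergent Robo known for its part in midline crossing. These roles are background and were not measured.

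Gene counts ranged from 9362215 to 12478838 per library, and levels below are CPM, counts scaled to a common library size with edgeR's TMM factors. Libraries of 1 group differed in the cell types their RNA represented. Wild-type P4 replicate 2 stood apart: the bipolar cell gene Grm6 was at 57.4 CPM there and at 0 to 0.461 CPM in the other P4 libraries (a gene singled out after its values were seen). The summed CPM of 6 genes of dividing progenitors was 841 in that library, 2339 in wild-type P4 replicate 1 and 1898 to 2439 in Kir2.1 P4. The sum of 8 rod genes was 936 there, 169 in wild-type P4 replicate 1 and 347 to 568 in Kir2.1 P4. The sum of 6 bipolar genes, Grm6 among them, was 401 there and 252 to 350 in the other P4 libraries. Summed CPM of 10 ganglion cell markers was 720 to 1121 in wild type and 181 to 564 in Kir2.1 at P4, and 88.3 to 226 and 119 to 177 at P8. In wild-type P8 the sum of 8 rod genes ran from 598 to 5471, against 4868 to 5273 in Kir2.1 P8. In whole tissue, fewer cells of a type and less RNA per cell cannot be told apart. Kir2.1 P8 replicate 2 had at least 1 count in 31325 genes, against 22609 to 24591 in the other libraries.

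The 3 Robo receptor genes gave the clearest pattern, a fall from P4 to P8, and bases upstream of 1 start site of each are shown for that reason. The windows come from RefSeq (GRCm38.p6), which held windows for 6 of the 10 genes in the table used here. The Robo1 window lies before an internal transcript start, well inside the annotated gene. Robo2 had 3 windows, and the one shown is that at the start of the gene as GENCODE annotates it. Letters run 5′ to 3′ on the gene's strand, end at the base before the first annotated exon base in the window, and are in capitals where they match 1 of 3 motifs searched in the 250 bases before each RefSeq start. The motifs were TAATTA (a homeodomain core), CAGCTG (an E-box) and TGACGTCA (the cAMP response element). Each reads the same on both strands and none of them overlaps another.
Robo1, chr16:72662899-72663148, plus strand: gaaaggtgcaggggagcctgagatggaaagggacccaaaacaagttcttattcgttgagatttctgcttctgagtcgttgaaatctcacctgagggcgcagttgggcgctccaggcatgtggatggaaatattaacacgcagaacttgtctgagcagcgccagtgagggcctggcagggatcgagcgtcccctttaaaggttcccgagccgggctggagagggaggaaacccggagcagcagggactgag
Robo2, chr16:74411826-74412075, minus strand: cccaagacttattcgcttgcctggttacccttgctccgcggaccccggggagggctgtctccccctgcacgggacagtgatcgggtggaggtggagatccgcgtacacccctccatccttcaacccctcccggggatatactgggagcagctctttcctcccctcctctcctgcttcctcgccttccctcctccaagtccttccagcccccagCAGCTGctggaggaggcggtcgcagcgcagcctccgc
Robo3, chr9:37433247-37433425, minus strand: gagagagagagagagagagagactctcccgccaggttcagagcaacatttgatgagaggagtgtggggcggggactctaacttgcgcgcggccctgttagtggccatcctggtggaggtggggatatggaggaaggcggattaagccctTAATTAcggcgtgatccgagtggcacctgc
Robo3 had a match to TAATTA, held by 4.84% of 32851 windows of that length in the table, and this Robo2 window had a match to CAGCTG, held by 13% of them. The other 2 Robo2 windows had no match to any of the 3 motifs. Robo1 had no match to any of the 3, and TGACGTCA, held by 1.55% of the windows, was in none of the 3. In these 250 bases the G and C content was 56% for Robo1, 65.6% for Robo2 (53.2% and 44.8% in its other windows) and 61.2% for Robo3, and the median of all windows was 52.4%. A match is a run of letters and not a measured binding site.

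Every one of the 10 genes had counts in every library, but Ntn1 and Slit3 were close to the floor. Ntn1, the netrin-1 gene (ENSMUSG00000020902, chr11:68209364-68400823, minus strand), had 1 to 8 counts per library, or 0.0893 to 0.835 CPM, and did not pass the filter on low counts. The other 9 genes were tested. Slit3 (ENSMUSG00000056427, chr11:35121224-35708507, plus strand) had 1 to 23 counts, or 0.0875 to 2.14 CPM, so that a change of these ligands was hardly detectable at this depth. Coordinates are those of GENCODE vM21 (GRCm38), for whole genes.

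**Figure D1:**
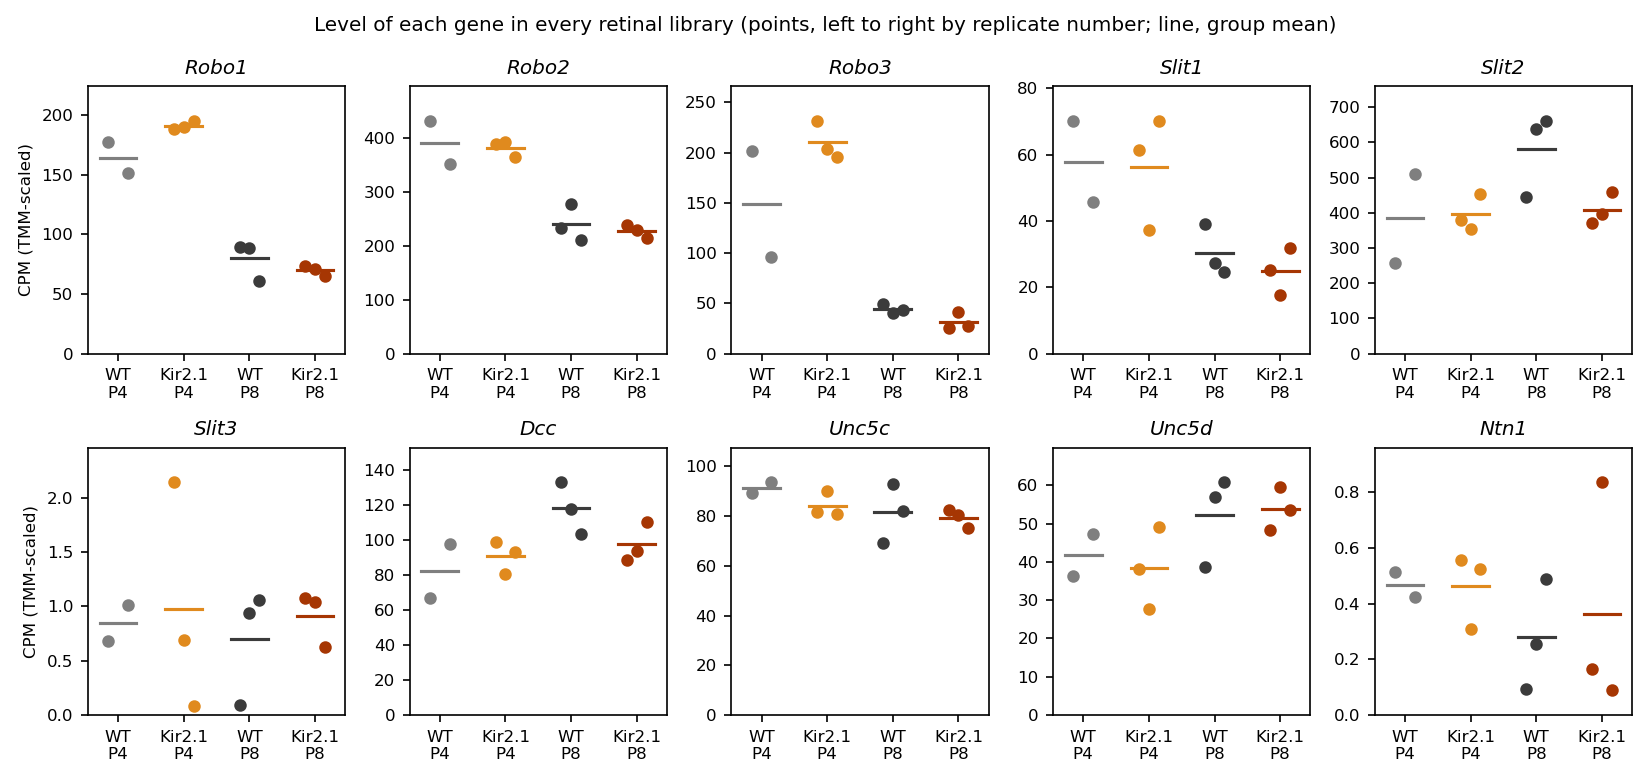
Level of each of the 10 genes in CPM (vertical axis, linear from 0) in each of the 11 libraries, one point per library with the group mean as a line. Robo1, Robo2 and Robo3 are lower in all 6 P8 libraries than in all 5 P4 libraries, and Slit3 and Ntn1 reach at most 2.14 CPM.

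Per length, Robo2, Robo3 and Slit2 had the highest means of the set at P4, and Slit2 and Robo2 at P8. At P4 in wild type the mean was 23.1 ± 3.37 (SD, n = 2) CPM per kb of exon for Robo2, 21.7 ± 10.97 for Robo3 and 15.1 ± 6.97 for Slit2. The 2 Robo3 libraries spanned those of Robo2, and both Slit2 libraries lay below Robo2. Robo1 at 9.94 ± 1.12, Slit1 at 9.79 ± 2.93, Dcc at 6.25 ± 1.66, Unc5c at 4.77 ± 0.162 and Unc5d at 4.53 ± 0.827 CPM per kb followed. Robo1 and Slit1 overlapped each other, as Unc5c and Unc5d did, and Dcc lay between these pairs, with its lower library within the range of Unc5d. In Kir2.1 P4 the means were 30.7 ± 2.75 for Robo3, 22.5 ± 0.902 for Robo2 and 15.6 ± 2.08 for Slit2 (n = 3), with no overlap among the 3. By P8 in wild type Slit2 led with 22.9 ± 4.63 (n = 3), then Robo2 with 14.2 ± 2.005 and Dcc with 8.95 ± 1.12 CPM per kb. Robo3 came next at 6.46 ± 0.700, beside Unc5d at 5.66 ± 1.28, Slit1 at 5.12 ± 1.29, Robo1 at 4.83 ± 0.992 and Unc5c at 4.26 ± 0.620, and each of these overlapped its neighbours. Slit2 at 16.1 ± 1.77 and Robo2 at 13.4 ± 0.686 CPM per kb also led in Kir2.1 P8, followed by Dcc at 7.39 ± 0.877 and Unc5d at 5.84 ± 0.605, with Robo3 at 4.61 ± 1.30. Exon length here joins the exons of all annotated transcripts, 25.4 kb for Slit2. Per kb of the longest coding transcript, wild-type P4 means were 45.6 for Robo2, 38.5 for Slit2, 31.03 for Robo3 and 21.7 for Robo1, so Slit2 and Robo3 changed places. In Kir2.1 P4 that length gave 44.5 for Robo2, 43.8 for Robo3 and 39.7 for Slit2, which then overlapped. In wild-type P8 it put Robo1 at 10.5, ahead of Robo3 at 9.22, and Unc5c at 8.45, ahead of Unc5d at 5.66 and Slit1 at 5.35. In Kir2.1 P8 it put Unc5d, at 5.84, below Dcc at 9.43, Robo1 at 9.23, Unc5c at 8.23 and Robo3 at 6.59. In wild-type P4 it also put Unc5c at 9.47, ahead of Dcc at 7.98. The order below Slit2 and Robo2 at P8 thus depended on the length used. So did that among the leading 3 genes at P4, and that of Dcc and Unc5c in wild-type P4.

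At P4 the question was whether Kir2.1 in ganglion cells changed the guidance genes in a retina whose correlated activity the study set out to disturb. None of the 9 tested genes passed the test at P4, and the 95% intervals show how large a change could have been missed. In edgeR's quasi-likelihood test with Benjamini-Hochberg adjustment over 18188 genes, 0% of all genes passed an adjusted p of 0.05, and before adjustment 1314 genes, none of the 9, had p under 0.05. DESeq2 on the same libraries called 21 genes and none of these 9. Of the fold changes 5 were positive and 4 negative, with a median of 0.04 on the log2 scale, against 0.01 over all genes.

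Among the receptors at P4, Robo1 was the 1 gene whose groups did not overlap. Robo1 (ENSMUSG00000022883, chr16:72308306-73046095, plus strand), the receptor through which Slits repel many axons, was at 177 and 151 CPM in wild type and at 188, 190 and 195 CPM in Kir2.1. All 3 Kir2.1 libraries lay above both wild-type libraries, as in 12.4% of all genes. The log2 fold change was 0.22 (SE 0.16, 95% interval -0.13 to 0.57, edgeR adjusted p = 0.773).

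Robo3 had the largest fold change of the 9 at P4, and it depended on 1 library. Robo3 (ENSMUSG00000032128, chr9:37415669-37433246, minus strand) was at 202 and 95.8 CPM in wild type and at 232, 203 and 196 CPM in Kir2.1. Wild-type replicate 1 lay inside the Kir2.1 range and wild-type replicate 2 far below it. The log2 fold change was 0.50 (SE 0.27, interval -0.10 to 1.10, edgeR adjusted p = 0.715). It was 1.13 (adjusted p = 0.201) without wild-type P4 replicate 1 and 0.06 (adjusted p = 0.991) without wild-type P4 replicate 2, the library with fewer progenitor and more bipolar transcripts. The part of that makeup in the value was not tested. In the authors' deposited table for P4, Robo3 had a log2 fold change of 0.90 ± 0.17 (their SE) with an adjusted p of 0.000115, the 1 gene of the set under 0.05 there, where 2.27% of 13830 genes were called. Robo1 stood at 0.35 with an adjusted p of 0.216 in the authors' deposited table for that age. For 4 well-counted genes the sign in the authors' deposited table was opposite to that of the fit here: -0.19 for Dcc, -0.23 for Slit2, 0.07 for Unc5c and 0.10 for Robo2, none of them called in either.

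Robo2, the main Robo of ganglion cell axons (ENSMUSG00000052516, chr16:73891839-74411825, minus strand), was at 432 and 352 CPM in wild type and at 389, 393 and 364 CPM in Kir2.1 at P4. The groups overlapped, and the log2 fold change was -0.04 (interval -0.33 to 0.26, edgeR adjusted p = 0.956).

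The Slit ligands overlapped between genotypes at P4. Slit1 (ENSMUSG00000025020, chr19:41600257-41743665, minus strand) was at 70.2 and 45.7 CPM in wild type and at 61.3, 37.1 and 70.2 CPM in Kir2.1. Slit2 (ENSMUSG00000031558, chr5:47983138-48307733, plus strand) was at 258 and 509 CPM in wild type and at 379, 353 and 455 CPM in Kir2.1. Both wild-type libraries lay outside the Kir2.1 range of Slit2, replicate 1 below and replicate 2 above it. The log2 fold changes were -0.04 for Slit1 (interval -0.72 to 0.63) and 0.04 for Slit2 (interval -0.50 to 0.59).

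The netrin receptors showed the same lack of separation at P4. Dcc (ENSMUSG00000060534, chr18:71253634-72351069, minus strand), the attractive receptor, was at 66.9 and 97.8 CPM in wild type and at 98.9, 80.5 and 93.0 CPM in Kir2.1. Unc5c (ENSMUSG00000059921, chr3:141465216-141834924, plus strand), a repulsive receptor, was at 89.2 and 93.6 CPM against 81.8, 90.1 and 80.7 CPM. Unc5d (ENSMUSG00000063626, chr8:28646717-29219636, minus strand), another member of the Unc5 family, was at 36.4 and 47.2 CPM against 38.1, 27.8 and 49.1 CPM. Fold changes on the log2 scale were 0.14 for Dcc, -0.12 for Unc5c and -0.13 for Unc5d, with edgeR adjusted p from 0.856 to 0.915. Of the Unc5c exon bases, 118 overlap the antisense gene Gm15688, and the strand setting of the counts is not given in the sources used here.

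**Figure D2:**
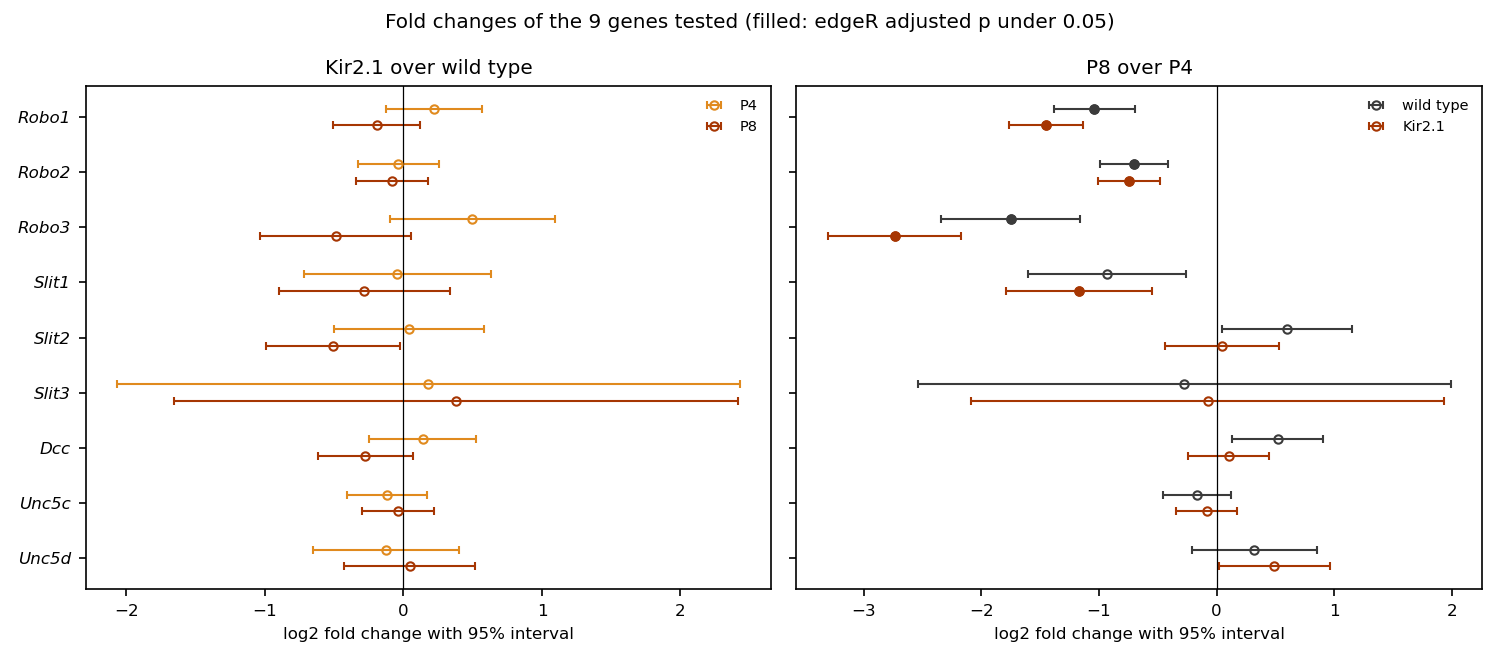
Log2 fold changes (horizontal axis) with 95% intervals from edgeR for the 9 tested genes, Kir2.1 over wild type at each age on the left and P8 over P4 in each genotype on the right, with filled points for an adjusted p under 0.05. All points on the left are open, and on the right the filled points are Robo1, Robo2 and Robo3 in both genotypes and Slit1 in Kir2.1.

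At P8 the same comparison again gave no call among the 9 genes, and 0% of all 18188 genes passed edgeR's test. Before adjustment 1240 genes had p under 0.05, of which Slit2 was the 1 from this set, and DESeq2 called 1 gene, none of the 9. Of the 9 fold changes 7 were negative, with a median of -0.19 on the log2 scale against 0.00 over all genes. Amacrine and ganglion cell markers leaned the same way. Amacrine cell markers were negative in 8 of 8 (median -0.54, 2 with p under 0.05 before adjustment). Ganglion cell markers were negative in 9 of 10 (median -0.17). Astrocyte (3 of 4) and cone markers (4 of 6) were mostly negative. Rod (8 of 8, median 0.90), bipolar (6 of 6), Mueller glia (6 of 6), microglia (5 of 5) and most progenitor genes (5 of 6) were positive. None of these genes was called. The summed CPM of amacrine cell markers was 1653 to 4036 in wild type and 1358 to 2207 in Kir2.1 at P8. The part of these cell types in the values of the 9 genes was not tested. No gene of the set had groups that did not overlap, against 5.5% of all genes with every Kir2.1 library higher and 5.11% with every one lower.

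Slit2 had the lowest p of the set at P8. Its libraries read 446, 637 and 661 CPM in wild type against 372, 395 and 459 CPM in Kir2.1. Wild-type replicate 1 fell within the Kir2.1 range and the other 2 wild-type libraries above it. The log2 fold change was -0.51 (SE 0.22, interval -0.99 to -0.02, unadjusted p = 0.0415), and it missed the threshold after edgeR's adjustment (adjusted p = 0.699). Without the filter on low counts edgeR gave an adjusted p of 0.0116, the lowest over the alternatives, which reached 1. The authors' deposited table gave Slit2 a log2 fold change of -0.41 with an adjusted p of 0.149. Within wild-type P8 the lowest Slit2 library, replicate 1, was also the lowest in summed rod genes, at 598 CPM. Wild-type replicate 3 had a rod sum of 5471 CPM with Slit2 at 661 CPM. The Kir2.1 P8 libraries had rod sums of 4868 to 5273 CPM with Slit2 at 372 to 459 CPM. The part of rods in the difference was not tested.

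Slit1, the other well-counted ligand, was at 39.0, 27.3 and 24.6 CPM in wild type P8 and at 25.2, 17.5 and 32.0 CPM in Kir2.1 P8. Its log2 fold change of -0.28 had an interval of -0.90 to 0.34.

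Among the receptors at P8, Robo3 was at 49.4, 39.9 and 43.4 CPM in wild type and at 25.3, 41.7 and 27.8 CPM in Kir2.1. Kir2.1 replicates 1 and 3 lay below every wild-type library. Kir2.1 replicate 2, the library with counts in 31325 genes, reached the wild-type range. The log2 fold change of Robo3 was -0.49 (SE 0.25, interval -1.03 to 0.06, edgeR adjusted p = 0.699). Robo1 was at 89.6, 88.8 and 60.9 CPM against 73.6, 71.2 and 64.7 CPM, a log2 fold change of -0.19 (interval -0.51 to 0.12). Robo2 was at 234, 278 and 212 CPM against 238, 230 and 215 CPM, a log2 fold change of -0.08 (interval -0.34 to 0.18). All 3 Robo genes overlapped between genotypes.

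Dcc was at 133, 118 and 103 CPM in wild type P8 and at 88.2, 93.5 and 110 CPM in Kir2.1 P8, with 1 Kir2.1 library inside the wild-type range. Its log2 fold change was -0.28 (interval -0.62 to 0.07, edgeR adjusted p = 0.701). Unc5c was at 69.4, 93.1 and 82.1 CPM against 82.4, 80.4 and 75.2 CPM, and Unc5d at 38.8, 57.1 and 60.8 CPM against 48.5, 59.6 and 53.6 CPM. These 2 Unc5 genes had log2 fold changes of -0.04 and 0.04 with intervals of -0.30 to 0.22 and -0.43 to 0.51. In the authors' deposited table for P8 no gene of the set had an adjusted p under 0.05, where 7.27% of 13396 genes did. The lowest values of the set in the authors' deposited table were 0.148 for Robo1 (log2 fold change -0.40) and that of Slit2.

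Whether the Kir2.1 effect differed between ages was tested as an interaction in edgeR. No gene of the set passed, and 0% of all 18188 genes did. Before adjustment 562 genes had p under 0.05, with Robo3 the 1 from the set, and DESeq2 called 0 genes. Robo3 went from 0.50 at P4 to -0.49 at P8, a difference of -0.99 (SE 0.37, interval -1.80 to -0.18, unadjusted p = 0.0209, adjusted p = 0.9998). Without wild-type P4 replicate 2 that difference was -0.55, and without wild-type P4 replicate 1 it was -1.62. Robo1, at -0.41, Slit2, at -0.55, and Dcc, at -0.42, had differences whose intervals included 0.

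**Figure D3:**
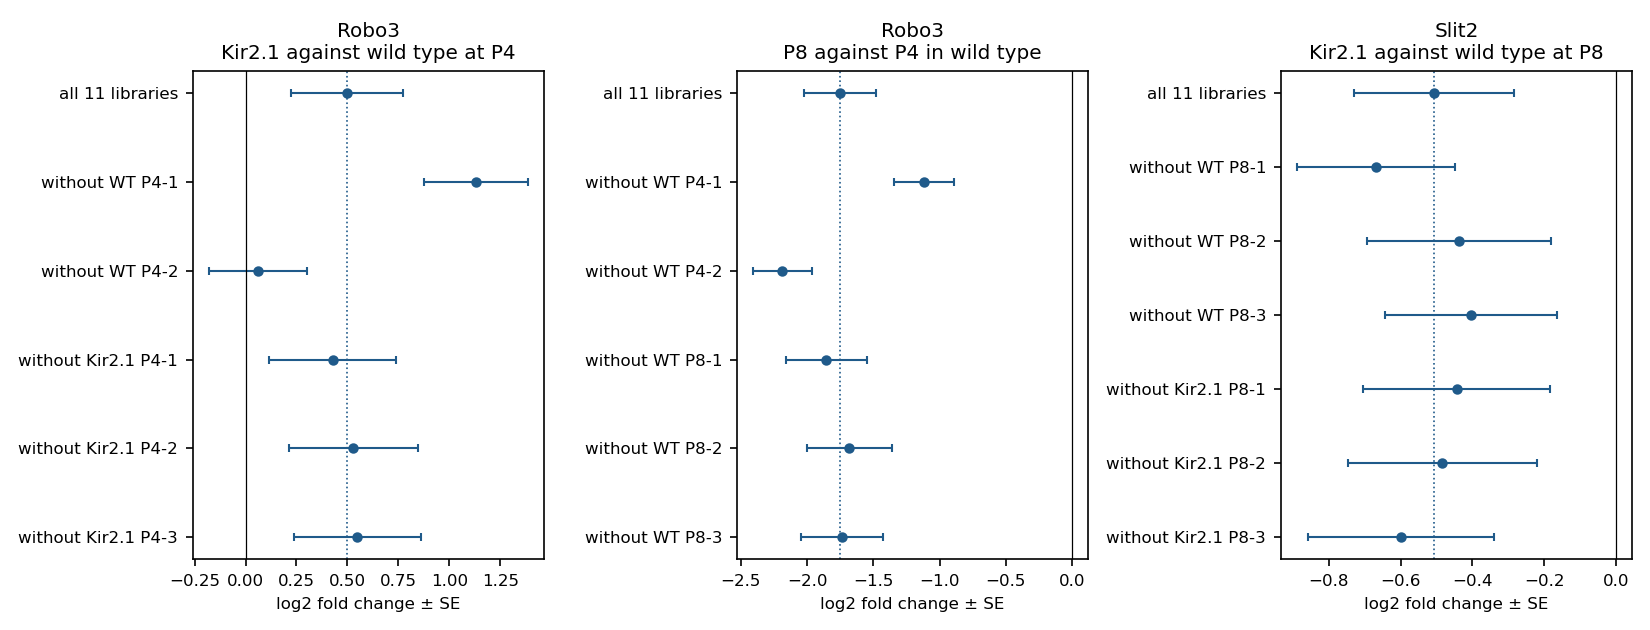
Log2 fold change ± SE (horizontal axis) from edgeR with all 11 libraries (top row) and after leaving out each library of the groups compared, for Robo3 between genotypes at P4, Robo3 between ages in wild type and Slit2 between genotypes at P8, with the all-library value as a dotted line. Robo3 at P4 lies at 1.13 without wild-type replicate 1 and at 0.06 without wild-type replicate 2, while Slit2 stays below 0 in every row.

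From P4 to P8 the 3 Robo receptor genes fell in both genotypes. In wild type, edgeR called 3 of the 9 genes lower and none higher, where 3.58% of all genes were called lower and 0.803% higher. In Kir2.1 it called 4 of the 9 lower and none higher, where 8.73% were called lower and 7.93% higher. Of the 9 genes, 4 had every wild-type P8 library below both P4 libraries (16.9% of all genes did) and Dcc had every one above (14.2% did). In Kir2.1, 4 of the 9 had every P8 library below every P4 library, as 18.7% of all genes did. The 2 age comparisons share no library.

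Robo3 had the largest fall. It went from a mean of 149 ± 75.1 (SD, n = 2) to 44.2 ± 4.80 CPM (n = 3) in wild type, 3.36-fold lower (log2 fold change -1.75, SE 0.27, edgeR adjusted p = 0.00319). In Kir2.1 it went from 210 ± 18.8 to 31.6 ± 8.88 CPM (n = 3 each), 6.67-fold lower (log2 fold change -2.74, SE 0.26, adjusted p = 7.82e-05). The highest P8 library was at 49.4 CPM and the lowest P4 library at 95.8 CPM. The interaction above, which is also the test of the difference between these 2 falls, did not pass.

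Robo1 fell from 164 ± 18.5 to 79.8 ± 16.4 CPM in wild type, 2.06-fold (log2 fold change -1.04, SE 0.16, edgeR adjusted p = 0.00291), and from 191 ± 3.66 to 69.8 ± 4.57 CPM in Kir2.1, 2.73-fold (log2 fold change -1.45, SE 0.15, adjusted p = 0.000105). Robo2 fell from 392 ± 57.1 to 241 ± 34.0 CPM in wild type, 1.62-fold (log2 fold change -0.70, SE 0.13, edgeR adjusted p = 0.0101), and from 382 ± 15.3 to 228 ± 11.7 CPM in Kir2.1, 1.68-fold (log2 fold change -0.75, SE 0.12, adjusted p = 0.00175). Neither gene's P4 and P8 ranges overlapped in either genotype.

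The wild-type calls for Robo1, Robo2 and Robo3 did not hold in every fit. Without wild-type P4 replicate 1 their log2 fold changes were -0.92, -0.55 and -1.12 with edgeR adjusted p of 0.0545, 0.231 and 0.0501, and a fit of only the wild-type libraries gave 0.0804, 0.142 and 0.0627. Over all alternatives run, the wild-type adjusted p reached 9.45e-09 for Robo1, 9.43e-05 for Robo2 and 1.19e-23 for Robo3 at the lowest. In Kir2.1 the 3 calls held in every alternative run, with adjusted p up to 0.00145, 0.0122 and 0.00132. Ganglion cell and progenitor transcripts fell over the same days: 8 of 10 ganglion cell markers and 6 of 6 dividing-cell genes were called lower in each genotype (1 ganglion cell marker was called higher in Kir2.1), and the summed dividing-cell genes went from 841 to 2439 CPM at P4 down to 67.0 to 113 CPM at P8. Rod and bipolar transcripts moved the other way: in Kir2.1, 8 of 8 rod genes and 5 of 6 bipolar genes were called higher, with median log2 fold changes of 3.48 and 4.66. In wild type 0 of 8 and 1 of 6 were called higher, with medians of 2.32 and 2.35. All-gene shares are those given above for each genotype and direction. The part of these cell types in the Robo falls was not tested.

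Slit1 fell with age in Kir2.1, from 56.2 ± 17.1 to 24.9 ± 7.22 CPM (n = 3 each), 2.25-fold (log2 fold change -1.17, SE 0.28, edgeR adjusted p = 0.0152). The call was lost without Kir2.1 replicate 1 of P4, replicate 3 of P4, replicate 1 of P8 or replicate 2 of P8, with adjusted p of 0.0560, 0.0648, 0.0501 and 0.0628. In wild type Slit1 went from 57.9 ± 17.3 to 30.3 ± 7.65 CPM, a log2 fold change of -0.93 (SE 0.31) that missed the threshold (edgeR adjusted p = 0.114). Over its alternatives that adjusted p ran from 7.16e-05 to 0.827, with 0.0444 in DESeq2.

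Slit2 and Dcc did not follow the Robo genes. In wild type Slit2 went from 384 ± 177 (n = 2) to 581 ± 118 CPM (n = 3), a log2 fold change of 0.60 (SE 0.25, edgeR adjusted p = 0.214), and Dcc from 82.4 ± 21.8 to 118 ± 14.7 CPM, a log2 fold change of 0.52 (SE 0.18, adjusted p = 0.134). Both passed in edgeR once wild-type P4 replicate 2 was left out, at 1.17 (adjusted p = 0.0118) for Slit2 and 0.82 (adjusted p = 0.0324) for Dcc. The alternatives spanned adjusted p of 0.00168 to 0.941 for Slit2 and 0.0324 to 0.867 for Dcc. In Kir2.1 the values were 0.05 for Slit2 (interval -0.44 to 0.53) and 0.10 for Dcc (interval -0.24 to 0.45). For both genes the test of the difference between genotypes, the interaction above, did not pass.

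Unc5c, Unc5d and Slit3 gave no call with age in edgeR. Unc5c had log2 fold changes of -0.16 in wild type and -0.09 in Kir2.1, and its levels over all 11 libraries spanned 69.4 to 93.6 CPM. Unc5d stood at 0.32 in wild type (edgeR adjusted p = 0.533) and 0.49 in Kir2.1 (adjusted p = 0.153). Slit3 had intervals of -2.54 to 1.99 and -2.08 to 1.93, wide because of its low counts.

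Within the Robo family Robo3 took a smaller share at P8 than at P4, and Robo2 a larger one. Robo3 made up 31.9% to 44.9% of the summed Robo CPM per exonic kb in wild-type P4 and 46.2% to 49.7% in Kir2.1 P4, and 21.1% to 28.2% and 16.6% to 25.5% at P8. Robo2 held 33.6% to 47.2% over the 5 P4 libraries and 52.1% to 63.3% over the 6 P8 libraries, and Robo1 held 16.3% to 20.9% over all 11. Among the Slits, Slit2 held 45.9% to 71.8% at P4 and 72.6% to 85.7% at P8. With the longest coding transcript as the length, the mean share of Robo3 was 30.5% and 38.6% at P4 and 19.5% and 15.5% at P8 in wild type and Kir2.1, the same direction. By that length Slit2 held 67.5% to 86.1% of the Slit sum at P4 and 86.6% to 93.6% at P8, the larger share in every library. These shares are a description and were not tested.

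**Figure D4:**
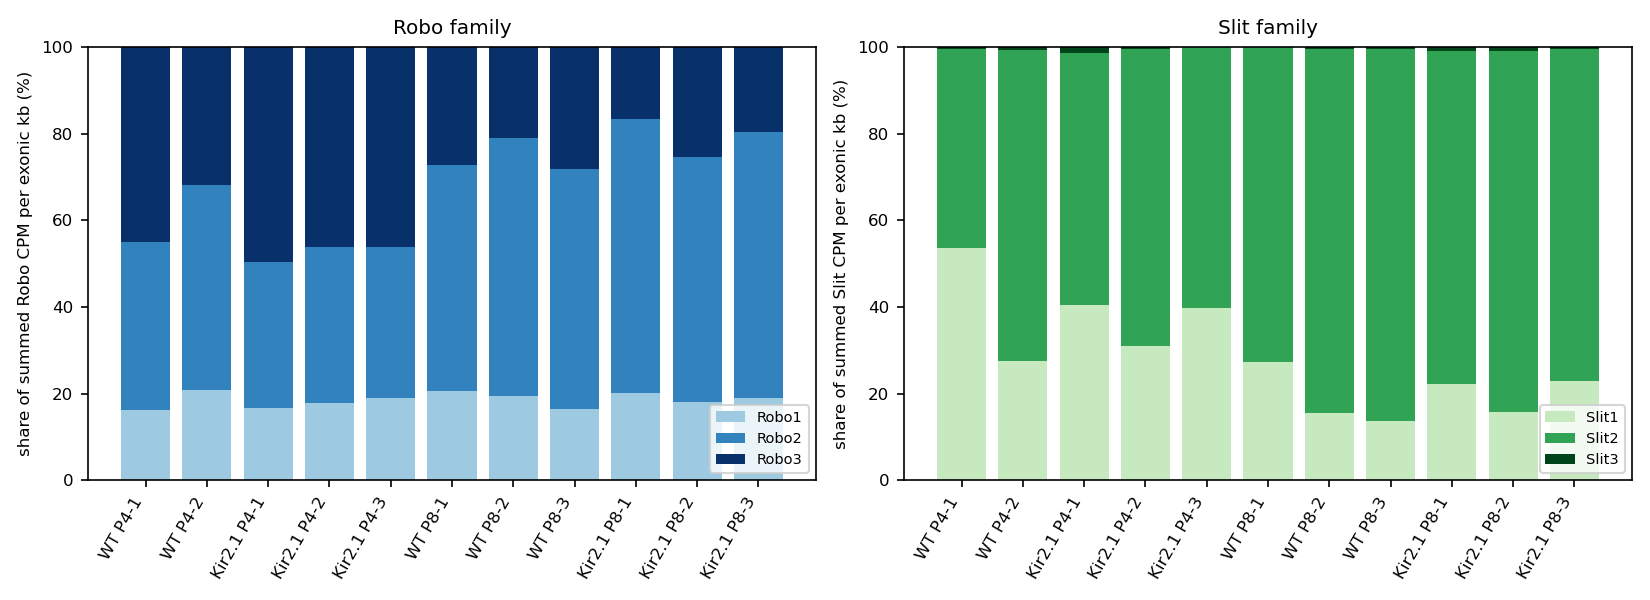
Share of each gene in the summed CPM per exonic kb of its family (vertical axis, percent) in each of the 11 libraries (one bar each, named by group and replicate), for the Robo genes on the left and the Slit genes on the right. Robo3 takes 31.9% to 49.7% of the Robo sum at P4 and 16.6% to 28.2% at P8. By this exon length Slit2 takes the larger share of the Slit sum in every library except wild-type P4 replicate 1.

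The wider pathway was followed in a list of 15 other ligands and receptors, 13 of which were tested, and a list of 22 signalling genes. Neither list had a call between genotypes at P4 or P8 in edgeR, and their median log2 fold changes were -0.09 and 0.01 at P4 and -0.22 and -0.18 at P8. DESeq2 called 1 gene of each list at P4, Nell2 (adjusted p = 0.00333) and Ablim1 (adjusted p = 0.00455), where it called 0.141% of 14909 genes. At that age 2 of the 13 had every Kir2.1 library higher and 3 every one lower, against 12.4% and 14.4% of all genes. Nell2, a secreted ligand of Robo3, was at 62.9 and 55.8 CPM in wild type P4 and at 23.5, 20.6 and 34.5 CPM in Kir2.1 P4, with a log2 fold change of -1.18 (SE 0.21, edgeR adjusted p = 0.458). The authors' deposited table gave Nell2 -1.15 with an adjusted p of 0.00375. At P4 the authors' deposited table called 2 of 12 ligands and receptors and 1 of 22 signalling genes, all lower, against 2.27% of all genes there. Ntng1 and Ntng2, membrane-anchored netrin-G proteins that do not bind Dcc, stood at -0.82 and 0.76, and Rgma, a ligand of the Dcc relative neogenin, at 0.47. The authors' deposited table gave -1.15 for Ntng1 (adjusted p 0.0106), 0.13 for Ntng2 (0.943) and 0.20 for Rgma (0.895).

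Ablim1, an actin-binding protein linked to netrin signalling, was at 135 and 135 CPM in wild type P4 and at 77.0, 61.5 and 80.0 CPM in Kir2.1 P4. Its log2 fold change was -0.89 (SE 0.16, edgeR adjusted p = 0.458), and the authors' deposited table gave -0.70 with an adjusted p of 0.0408. Of the other signalling genes 4 were wholly higher and 3 wholly lower in Kir2.1 at P4, with the largest fold changes for Vasp (-0.37), Srgap3 (0.26) and Cdc42 (-0.24). The authors' deposited table gave these -0.48, 0.04 and 0.14, with the opposite sign for Cdc42, and called none of them. With Ablim1 that made 4 of 22 in each direction, against 12.4% of all genes higher and 14.4% lower. At P4 the ganglion cell marker sum was lower in every Kir2.1 library than in both wild-type libraries, and 7 of its 10 genes were wholly lower. Its part in the lower Nell2 and Ablim1 values was not tested.

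At P8 none of the 13 ligands and receptors had groups that did not overlap. Of the 22 signalling genes, Srgap2, a Robo-binding GTPase activator, was wholly higher (log2 fold change 0.38), and 4 were wholly lower, among them Trio (-0.31), Evl (-0.24) and Nck2 (-0.24). Over all genes 5.5% were wholly higher and 5.11% wholly lower at P8. In the authors' deposited table for P8, adjusted p was under 0.05 for 3 of 13 ligands and receptors and for 2 of 22 signalling genes, against 7.27% of all genes there. Of these, Ntng2 was higher in Kir2.1 (0.81), and Unc5a (-0.85), Flrt3 (-0.87), Trio (-0.41) and Pak1 (-0.69) were lower.

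With age in wild type, edgeR called 1 of the 13 ligands and receptors and 4 of the 22 signalling genes lower, and none higher, against 3.58% and 0.803% of all genes. The 4 signalling calls went to 0 without wild-type P4 replicate 1 and to 1 without wild-type P8 replicate 2. Nell2 fell by 1.74 on the log2 scale (adjusted p = 0.000638). Srgap1, a GTPase activator that binds Robo receptors, fell by 1.35 (adjusted p = 0.0142) and Dock1, a Rac activator downstream of Dcc and Robo, by 1.09 (adjusted p = 0.0310). In Kir2.1, edgeR called 1 of 13 higher and 3 lower, and 2 of 22 higher and 9 lower, against 7.93% of all genes higher and 8.73% lower. The 4 ligand and receptor calls became 1 or 2 on leaving out any 1 Kir2.1 library. Ntng1 rose by 1.17 and Rgma fell by 1.29, and Draxin, a secreted Dcc ligand, fell by 0.90. Among the signalling genes Dock1 fell by 1.59 and Srgap1 by 1.44, and Ablim1 rose by 0.71 and Usp33, a deubiquitinase that acts on Robo1, by 0.44.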

How the data were processed

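Per the submitters' processing notes, the tools were cutadapt 1.18, STAR 2.5.0c, SAMtools 1.9, bedtools 2.26.0, HTSeq 0.6.1 and DESeq2, with mm10. The authors deposited raw counts per Ensembl gene for each library, and for each age a table comparing the genotypes. Per the file headers these hold a log2 fold change, its standard error and an adjusted p-value, quoted here only as the authors' own. The libraries behind those tables are not given in the sources used here. Closing lines that name no gene (74.6% to 79.8% of a library's entries) were left out.

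Group, age and replicate came from sample titles and fields. In R 4.3.3, edgeR 4.0.16 (filterByExpr, TMM factors of 0.964 to 1.05, quasi-likelihood F-tests, two-sided) was fitted to all 11 libraries with 4 group means. The fit gave 5 contrasts, with Benjamini-Hochberg adjustment over 18188 genes and a threshold of 0.05. It was tested on simulated counts first. DESeq2 1.42.0 served as an alternative, beside those in the closing section. Lengths came from GENCODE vM21.

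The 10 genes and all lists were chosen with earlier results of these data known. All 10 genes are described. Other pathway genes are named where called (up to 2 largest rises and falls per list and contrast), or where genotypes do not overlap at a mean of at least 1 CPM (up to 4 per list and age). Groups of 2 or 3 libraries limit the precision.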

Additional observations from a re-analysis of the deposited data

How the results depend on the processing

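With DESeq2 size factors, DESeq2 or edgeR on only the 2 groups compared, every fold change of the 9 genes kept its direction, and without the filter on low counts too. Counts of genes called moved more. At P4, against 0 genes, DESeq2 called 21, DESeq2 on only those libraries (an alternative chosen after seeing the data) 72, and edgeR without the filter 339, with 0 to 6 on leaving out a library (6 without wild-type P4 replicate 1). At P8, against 0, these were 1, 3 and 447, with 0 to 219 (219 without wild-type P8 replicate 3). For the interaction, no filter gave 136 genes, Robo3 among them with an adjusted p of 0.00728, and leaving out a library 0 to 1. With age, against 798 in wild type, DESeq2 called 1444, no filter 2058 and only the wild-type libraries 113, with 163 (without wild-type P4 replicate 1) to 1339 (without wild-type P4 replicate 2). In Kir2.1, against 3029, leaving out a library gave 1764 to 2169. The cause of these moves was not tested, except that fewer libraries were fitted where one was left out.

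Same-numbered libraries were not treated as pairs, since the labels tie none together and not every correlation of their deviations was over 0.1. By replicate number these were 0.0878, -0.00646 and -0.0757 between genotypes at P8, 0.128 and 0.0687 at P4, 0.0123 and 0.0198 between ages in wild type, and 0.0483, 0.139 and 0.129 in Kir2.1. The best match was the own number in all of these except replicates 2 and 3 at P8, a hint from the data and not from the design. A replicate block gave 0, 0 and 0 genes called at P4, at P8 and for the interaction, 558 with age in wild type and 2928 in Kir2.1. Under the block the fold change reversed to 0.018 for Robo2 at P4, to -0.0097 for Slit3 in the interaction, and to 0.055 and 0.045 for Slit3 with age in wild type and Kir2.1, and the wild-type fall of Slit1 reached an adjusted p of 0.0478.

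Leaving out 1 library reversed some fold changes that were near 0 or, for Slit3, rested on few counts, and none of those was called. At P4 the ranges were -0.18 to 0.12 for Robo2, -0.32 to 0.29 for Slit1, -0.37 to 0.62 for Slit2, -1.07 to 0.72 for Slit3, -0.11 to 0.44 for Dcc and -0.34 to 0.076 for Unc5d. At P8 they were -0.17 to 0.034 for Robo2, -0.13 to 0.80 for Slit3, -0.15 to 0.068 for Unc5c and -0.13 to 0.17 for Unc5d. For the interaction they were -0.20 to 0.094 for Robo2, -0.58 to 0.035 for Slit1, -0.34 to 1.45 for Slit3, -0.034 to 0.19 for Unc5c and -0.033 to 0.39 for Unc5d. With age they were -0.70 to 0.21 for Slit3 in wild type, and -0.044 to 0.16 for Slit2 and -0.61 to 1.16 for Slit3 in Kir2.1. Depth limits Ntn1 and Slit3, whose counts stayed at 23 or below.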
